A study of Mus musculus with 10 samples.

Results

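Polycomb repressive complex 2 (PRC2) is the histone methyltransferase that GSK343 acts on, and its subunit transcripts were followed in 10 Hepa1-6 tumours. The genes were 10 by name, Ezh2, Ezh1, Suz12, Eed, Rbbp4, Rbbp7, Jarid2, Aebp2, Mtf2 and Phf19, out of 54986 gene identifiers in the deposited table. Each had a single line in the table. Phf19 averaged below 1 FPKM (fragments per kilobase of exon, scaled to the mapped fragments of the library), the floor for testing, so 9 of the 10 were tested between the treatments.

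PRC2 places methyl groups on lysine 27 of histone H3, a mark of silenced genes. EZH2 or its paralog EZH1 is the catalytic subunit, EED and SUZ12 are needed for its activity, and RBBP4 or RBBP7 binds histones. Accessory subunits define a pair of forms, one with a Polycomb-like protein such as MTF2 or PHF19 and the other with JARID2 and AEBP2. EZH2 is known as the catalytic subunit of dividing cells and EZH1 as that of resting ones, and EZH2 is often abundant in liver cancer. GSK343 competes with the methyl donor S-adenosylmethionine at EZH2, so it is an inhibitor of the enzyme and not of its transcript.

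The GSK343 group held 5 tumours treated with that EZH2 inhibitor (replicates 1 to 5), and the vehicle group held 5 (replicates 1, 2, 3, 5 and 6). Every tumour came from Hepa1-6, an established mouse hepatoma line, placed under the skin of C57/BL6 mice and left to grow for 4 weeks. Vehicle tumours are titled only with the letter C, and their group follows by elimination between the 2 conditions that the design text names. Mice also received either an anti-asialo-GM1 antibody, known to deplete natural killer cells, or its control. The labels assign neither to a tumour, and the antibody is in no comparison. Dose, schedule, age and sex were likewise not given. The design text calls the tumours biological replicates. A tumour under the skin lacks the liver around it and holds host cells as well as Hepa1-6 cells.

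The libraries were alike in size, with 38.0 to 50.8 M reads (M, mega) inferred from the steps between low values. The mitochondrial share of summed FPKM was highest in GSK343 replicate 3 (7.17%) and GSK343 replicate 5 (7.11%), and 2.63% to 5.05% elsewhere. Hepatoma markers were high in every tumour: Afp averaged 1775 ± 252 FPKM in GSK343 and 2085 ± 197 FPKM in vehicle tumours, and Alb 2810 ± 278 and 3129 ± 318 FPKM (SD, n = 5 each). The sum of the 10 hepatoma markers ran from 4818 to 6618 FPKM in GSK343 and from 6117 to 7960 FPKM in vehicle tumours, and all 10 had the lower mean in GSK343 tumours. The 14 leukocyte markers all had the higher mean in GSK343 tumours, with sums of 513 to 878 FPKM against 252 to 707 FPKM, and none was at 0 throughout. Ptprc, the common leukocyte antigen, averaged 19.04 ± 11.6 FPKM in GSK343 and 3.79 ± 2.28 FPKM in vehicle tumours, and Cd52 314 ± 89.8 and 169 ± 101 FPKM. Sums of the 8 fibroblast markers ran from 1454 to 2233 FPKM in GSK343 and from 1518 to 1906 FPKM in vehicle tumours, and 7 of the 8 had the higher mean in GSK343 tumours. The collagen genes Col1a1 and Col1a2 averaged 226 ± 46.3 and 217 ± 56.4 FPKM in GSK343, against 165 ± 36.3 and 149 ± 42.7 FPKM in vehicle tumours. For the 6 muscle markers they were 52.0 to 357 and 2.71 to 88.6 FPKM, for the 5 endothelial markers 23.4 to 38.4 and 18.4 to 34.4 FPKM, and for the 5 keratinocyte markers 1.81 to 22.0 and 2.79 to 115 FPKM. Of muscle, Acta1 averaged 61.2 ± 38.8 FPKM in GSK343 and 21.2 ± 14.6 FPKM in vehicle tumours, and Ckm 11.6 ± 10.1 and 3.39 ± 2.66 FPKM. Of endothelium, Pecam1 averaged 18.0 ± 3.74 FPKM in GSK343 and 14.6 ± 5.19 FPKM in vehicle tumours, and Cdh5 8.70 ± 1.64 and 7.25 ± 0.957 FPKM. Of keratinocytes, Krt14 averaged 1.62 ± 1.85 FPKM in GSK343 and 14.1 ± 17.9 FPKM in vehicle tumours, and Krt5 1.12 ± 1.56 and 4.91 ± 5.98 FPKM. Among the tested markers of these lists, limma called 0 of 12 leukocyte, 0 of 10 hepatoma, 0 of 8 fibroblast, 0 of 6 muscle, 0 of 3 endothelial and 0 of 4 keratinocyte genes. At an unadjusted p under 0.05, 9 leukocyte, 5 fibroblast and 5 muscle genes were higher and 4 hepatoma genes lower in GSK343 tumours. Of all 14496 lines tested, 1552 were higher and 995 lower at that threshold, and 0.0828% were called. A fit with the leukocyte score as a covariate is given with the results, and the part of the other cells in the results on PRC2 was not tested. In such bulk tissue, fewer cells of a type and less RNA per cell cannot be told apart.

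None of the 9 tested subunits passed the threshold of an adjusted p under 0.05 (limma on log2(FPKM + 1), adjusted over 14496 lines), where 0.0828% of all lines tested were called. At an unadjusted p under 0.05, 1 of the 9 was reached, Ezh2, lower in GSK343 tumours, and 6.86% of all lines were reached in that direction. The log2 fold change was below 0 for 8 of the 9 subunits and for 7593 of the 14496 lines. Its median was -0.08 over the 9 and -0.01 over all lines. With the leukocyte score as a covariate, 6 of the 9 changed sign, all but Ezh2, Ezh1 and Rbbp4. Without the covariate those 6 lay between -0.08 and 0.08, and how many of all lines changed sign was not counted. In that fit each of the 9 had a limma adjusted p of 0.99987. The score itself differed between the groups, at 4.27 to 5.21 in GSK343 and 3.46 to 4.65 in vehicle tumours. The 2 groups overlapped for each of the 10 genes, while 2.62% of all lines tested did not overlap.

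**Figure D1:**
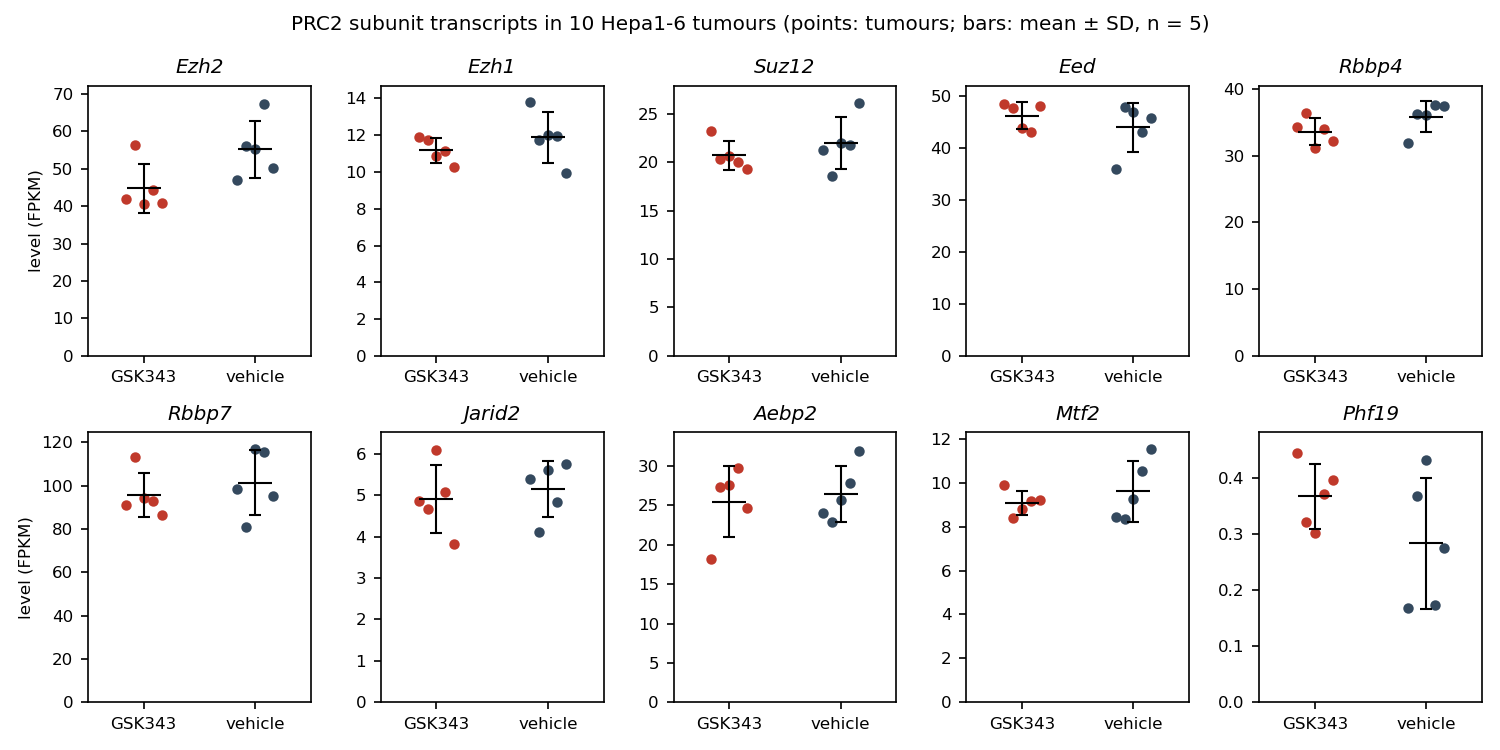
Level of each PRC2 subunit in FPKM (vertical axes, from 0, a separate scale per gene), with 1 point per tumour and bars for the mean and SD of 5 tumours. For Ezh2, 4 of the 5 GSK343 tumours lie below the lowest vehicle tumour at 47.1 FPKM, and the groups overlap in all 10 panels.

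Among the catalytic subunits, Ezh2 (mm10 chromosome 6, 47530139 to 47595341, minus strand) measured 41.9, 56.3, 40.6, 44.3 and 40.8 FPKM in GSK343 replicates 1 to 5. It measured 47.1, 56.1, 55.3, 67.2 and 50.3 FPKM in vehicle replicates 1, 2, 3, 5 and 6. GSK343 replicate 2 lay apart from the other 4 GSK343 tumours and above every vehicle tumour except replicate 5. The means were 44.8 ± 6.60 FPKM in GSK343 and 55.2 ± 7.65 FPKM in vehicle tumours (SD, n = 5 each). The log2 fold change was -0.30, with a 95% interval from -0.55 to -0.04 that is not corrected for the number of genes (SE 0.115, limma adjusted p = 0.233). Leaving out the pair of GSK343 tumours whose mitochondrial share was highest gave -0.21 (limma adjusted p = 0.768). It was -0.38 without GSK343 replicate 2 and -0.22 without vehicle replicate 5, and no single tumour left out brought a call (adjusted p 0.169 to 0.448 in limma). With the leukocyte score as a covariate the log2 fold change was -0.19 (limma adjusted p = 0.99987).

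Ezh1 (chromosome 11, 101191115 to 101226463, minus strand), the paralog of lower catalytic activity, ranged from 10.3 to 11.9 FPKM in GSK343 and from 9.93 to 13.8 FPKM in vehicle tumours. Its highest and its lowest value both stood in vehicle tumours, replicates 1 and 6. Its log2 fold change was -0.08, with a 95% interval from -0.26 to 0.11 (limma adjusted p = 0.668).

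Among the structural core subunits, Suz12 (chromosome 11, 79993106 to 80034123, plus strand), whose product holds the complex together, measured 23.2, 20.3, 20.7, 19.996 and 19.3 FPKM in GSK343 replicates 1 to 5. In vehicle replicates 1, 2, 3, 5 and 6 it measured 21.3, 18.6, 22.0, 21.8 and 26.2 FPKM. The GSK343 tumours lay wholly within the vehicle range (log2 fold change -0.08, 95% interval -0.27 to 0.12, limma adjusted p = 0.683).

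Eed (chromosome 7, 89954654 to 89980983, minus strand) encodes the subunit that reads trimethylated lysine and stimulates the enzyme. It measured 48.5, 47.8, 43.8, 43.0 and 48.0 FPKM in GSK343 replicates 1 to 5, against 36.0, 48.0, 46.9, 43.2 and 45.7 FPKM in vehicle replicates 1, 2, 3, 5 and 6. Vehicle replicate 1 was the low value, and the other 4 vehicle tumours lay within the GSK343 range. Eed had the only log2 fold change above 0 among the 9 tested subunits, 0.08, with a 95% interval from -0.11 to 0.26 (limma adjusted p = 0.656). Without vehicle replicate 1 it was 0.0086. Exons of the noncoding E230029C05Rik overlap Eed on the other strand at a mean of 1.43 FPKM, and the sources used here do not say whether the counting used strand.

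The histone-binding subunits are shared with other chromatin complexes, so their levels do not belong to PRC2 alone. Rbbp7 (chromosome X, 162760402 to 162779092, plus strand) was the most abundant member in each of the 10 tumours, at 86.6 to 113 FPKM in GSK343 and 80.8 to 117 FPKM in vehicle tumours. Its log2 fold change was -0.08, with a 95% interval from -0.32 to 0.17 (limma adjusted p = 0.746). Txlng, whose exons overlap Rbbp7 on the other strand, averaged 3.15 FPKM. Rbbp4 (chromosome 4, 129307100 to 129335370, minus strand) measured 34.2, 36.4, 31.2, 34.0 and 32.2 FPKM in GSK343 replicates 1 to 5, and 31.8, 36.3, 36.1, 37.5 and 37.4 FPKM in vehicle replicates 1, 2, 3, 5 and 6. Vehicle replicate 1 stood below the other 4 vehicle tumours, which lay between 36.1 and 37.5 FPKM, and GSK343 replicate 2 was the only GSK343 tumour among those 4. Rbbp4 had the narrowest 95% interval, from -0.24 to 0.06 around a log2 fold change of -0.09 (limma adjusted p = 0.514). RBBP4 and RBBP7 are close paralogs, and the sources used here do not say how reads shared by the pair were counted.

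Of the accessory subunits that join JARID2 to AEBP2, Jarid2 (chromosome 13, 44729474 to 44921643, plus strand) ranged from 3.81 to 6.09 FPKM in GSK343 and from 4.10 to 5.74 FPKM in vehicle tumours. Aebp2 (chromosome 6, 140622663 to 140678472, plus strand), a zinc finger protein, ranged from 18.1 to 29.7 FPKM and from 22.8 to 31.9 FPKM. The groups mixed for both genes, with log2 fold changes of -0.06 each (95% interval -0.32 to 0.20 for Jarid2 and -0.36 to 0.24 for Aebp2, limma adjusted p = 0.816 and 0.838). GSK343 replicate 1 had the lowest Aebp2 value of the 10 tumours, and without it the log2 fold change of Aebp2 was 0.05.

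Of the Polycomb-like subunits, which bind DNA and help to recruit the complex, Mtf2 (chromosome 5, 108065674 to 108109004, plus strand) ranged from 8.41 to 9.87 FPKM in GSK343 and from 8.33 to 11.5 FPKM in vehicle tumours. Its log2 fold change was -0.07, with a 95% interval from -0.27 to 0.14 (limma adjusted p = 0.748). Tmed5, whose exons overlap Mtf2 on the other strand, averaged 11.5 FPKM, so reads of the pair may be mixed.

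Phf19 (chromosome 2, 34893757 to 34914026, minus strand) was the lowest member, at 0.445, 0.322, 0.302, 0.373 and 0.398 FPKM in GSK343 replicates 1 to 5. It measured 0.169, 0.369, 0.433, 0.174 and 0.275 FPKM in vehicle replicates 1, 2, 3, 5 and 6. The GSK343 values were close together, while vehicle replicates 2 and 3 lay among them and vehicle replicates 1, 5 and 6 lay below. Vehicle replicates 2 and 3 also had the higher leukocyte scores of the vehicle group, 4.65 and 4.17 against 3.53, 3.46 and 3.56 (mean log2(FPKM + 1) of 12 markers). The GSK343 tumours did not follow this order throughout. GSK343 replicate 3, whose score lay above every vehicle tumour, had the lowest GSK343 value of Phf19, 0.302 FPKM. GSK343 replicate 4 had the lowest score of its group, 4.27, with Phf19 at 0.373 FPKM. Over the 10 tumours the r of Phf19 with the leukocyte score was 0.69, given without a test. Whether host cells supply Phf19 was not tested. With no filter on low values its log2 fold change was 0.10 (limma adjusted p = 0.583).

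**Figure D2:**
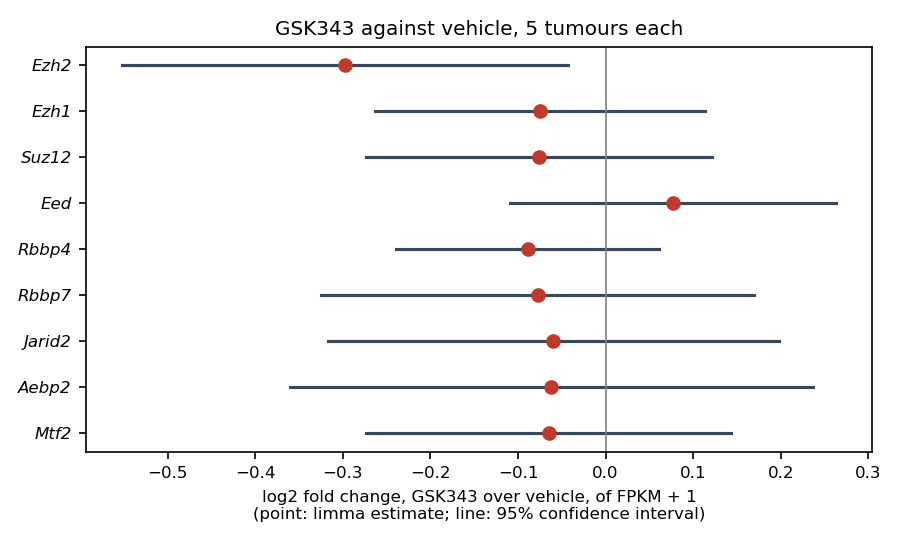
Log2 fold change of FPKM + 1, GSK343 over vehicle (horizontal axis), for the 9 tested subunits (rows), as limma's estimate (points) with its 95% confidence interval (lines, not corrected for the number of genes). The interval of Ezh2 runs from -0.55 to -0.04, and the intervals of the other 8 include 0.

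The order of the mean levels over the 10 tumours was Rbbp7 (98.5 FPKM), Ezh2 (49.98), Eed (45.1), Rbbp4 (34.7), Aebp2 (25.9), Suz12 (21.3), Ezh1 (11.5), Mtf2 (9.35), Jarid2 (5.02) and Phf19 (0.326 FPKM). Rbbp7 and Ezh2, Suz12 and Ezh1, Mtf2 and Jarid2, and Jarid2 and Phf19 did not overlap in any tumour, so these steps exceeded the spread. Ranges of the other neighbours overlapped, although Eed lay above Rbbp4, and Rbbp4 above Aebp2, within each of the 10 tumours. Ezh2 was above Eed in 2 of 5 GSK343 tumours and in 5 of 5 vehicle tumours. Aebp2 was above Suz12 in 9 of the 10 tumours, all but GSK343 replicate 1, and Ezh1 above Mtf2 in 9, all but vehicle replicate 6. Within groups, the coefficient of variation of the 9 tested subunits ran from 5.59% (Eed) to 17.6% (Aebp2) in GSK343 tumours and from 6.502% (Rbbp4) to 14.8% (Rbbp7) in vehicle tumours. That of Phf19 was 15.6% and 41.1%.

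A ratio of subunits within a tumour does not change with the scaling of its library, and 8 ratios were compared. Ezh2 to Eed was 0.863, 1.18, 0.927, 1.03 and 0.848 in GSK343 replicates 1 to 5, and 1.31, 1.17, 1.18, 1.56 and 1.10 in vehicle replicates 1, 2, 3, 5 and 6. In 4 of the 5 GSK343 tumours it lay below every vehicle tumour, and GSK343 replicate 2 lay within the vehicle range. The mean log2 ratio was -0.06 in GSK343 and 0.33 in vehicle tumours, a difference of -0.38 (exact two-sided permutation p = 0.0317, adjusted over the 8 ratios p = 0.254). With single tumours left out the difference ran from -0.46, without GSK343 replicate 2, to -0.30 (exact permutation, adjusted p 0.0635 to 0.444). Without GSK343 replicates 3 and 5 it was -0.30 (exact permutation, adjusted p = 0.714). The smallest p that the 252 assignments allow is 0.00794. After adjustment over the 8 ratios, a ratio that alone reached this p could not pass the threshold. Without GSK343 replicate 2 the groups did not overlap, and the adjusted p was still 0.0635. Leaving out tumours also leaves fewer assignments. The adjusted p of the ratios therefore cannot decide whether a single ratio differs between the treatments.

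Ezh2 to Ezh1, the balance of the catalytic paralogs, was 3.52, 4.79, 3.74, 3.97 and 3.97 in GSK343 replicates 1 to 5, against 3.42, 4.79, 4.60, 5.63 and 5.07 in vehicle replicates 1, 2, 3, 5 and 6. Vehicle replicate 1 was the lowest of all 10 tumours, and its Ezh1 value was the highest of all. The mean log2 ratio was 1.99 in GSK343 and 2.21 in vehicle tumours, a difference of -0.22 (exact permutation p = 0.167, adjusted p = 0.381). Ezh2 made up 77.9% to 82.7% of the summed FPKM of the paralogs in GSK343 and 77.4% to 84.9% in vehicle tumours. It was thus the more abundant paralog transcript in each of the 10.

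Ezh2 to Suz12 averaged 2.17 ± 0.368 in GSK343 and 2.55 ± 0.503 in vehicle tumours (SD, n = 5 each; exact permutation p = 0.222, adjusted p = 0.381). Suz12 to Eed averaged 0.449 ± 0.0331 and 0.505 ± 0.0823 (exact permutation p = 0.238, adjusted p = 0.381). For the histone binders, Rbbp4 to Rbbp7 was 0.322 to 0.376 in GSK343 and 0.309 to 0.449 in vehicle tumours (exact permutation p = 0.873, adjusted p = 0.968).

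Between the accessory forms, the summed FPKM of Mtf2 and Phf19 over that of Jarid2 and Aebp2 was 0.449, 0.274, 0.270, 0.274 and 0.339 in GSK343 replicates 1 to 5. It was 0.293, 0.323, 0.310, 0.328 and 0.314 in vehicle replicates 1, 2, 3, 5 and 6. The vehicle tumours thus lay within a narrow band and the GSK343 tumours on both sides of it. The difference of the mean log2 ratios was 0.01 (exact permutation p = 0.968, adjusted p = 0.968). It was -0.12 without GSK343 replicate 1, the tumour with the low Aebp2. Whether the spread differs between the treatments was not tested. Jarid2 to Aebp2 averaged 0.197 ± 0.0470 and 0.195 ± 0.0242 (exact permutation p = 0.960). Phf19 to Mtf2 averaged 0.0403 ± 0.00416 and 0.0303 ± 0.0141 (exact permutation p = 0.159, adjusted p = 0.381), and the log2 difference was 0.53, or 0.16 with a pseudocount of 1.

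**Figure D3:**
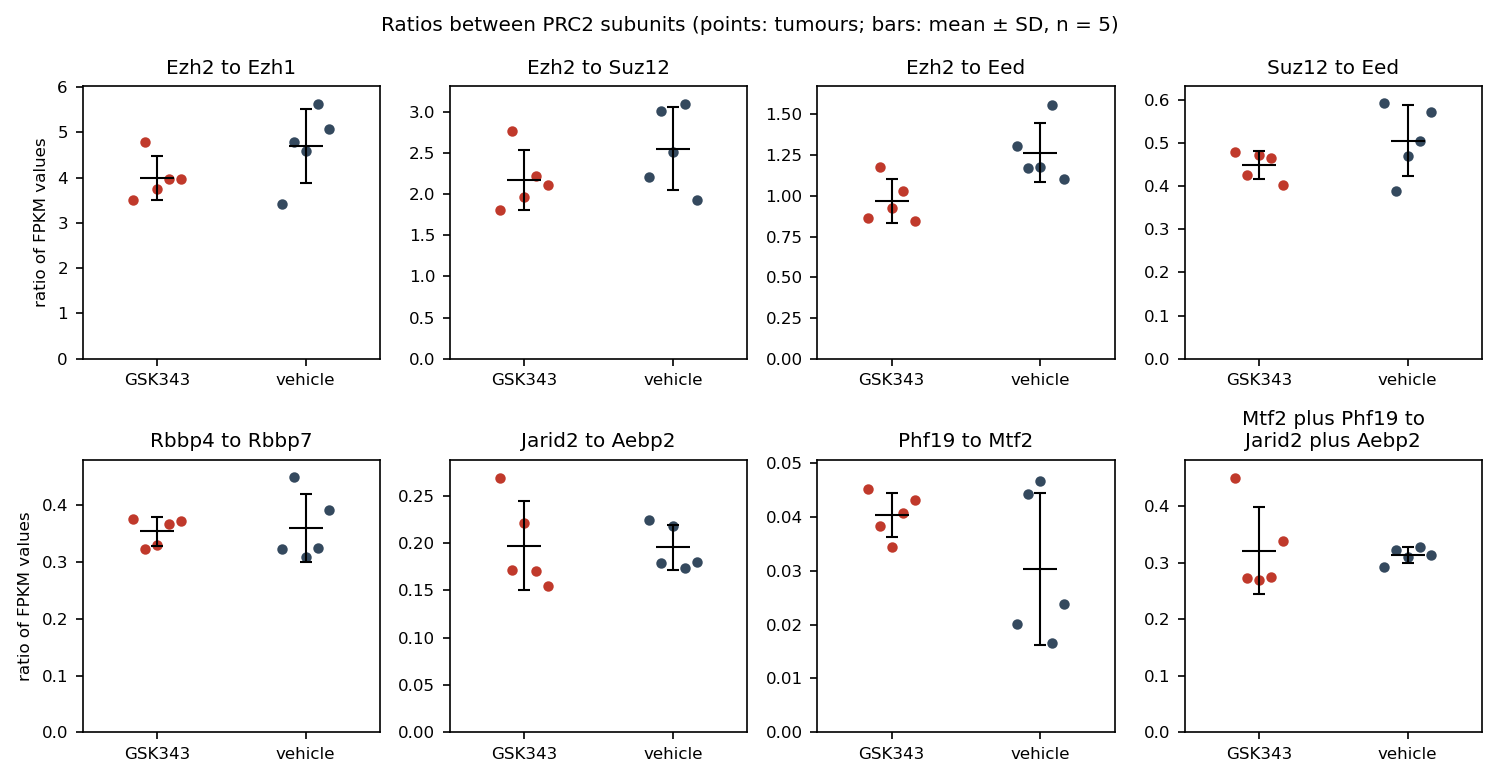
Ratios of FPKM values between PRC2 subunits (vertical axes, from 0, a separate scale per ratio), with 1 point per tumour and bars for the mean and SD of 5 tumours. Ezh2 to Eed is below 1.10, the lowest vehicle value, in 4 of the 5 GSK343 tumours, and the groups overlap in all 8 panels.

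Covariation with proliferation was taken from a score, the mean log2(FPKM + 1) of 30 genes of DNA replication and mitosis, none of them a PRC2 member. The score was 4.75, 4.80, 4.52, 4.54 and 4.71 in GSK343 replicates 1 to 5, and 4.55, 4.72, 4.82, 4.90 and 4.86 in vehicle replicates 1, 2, 3, 5 and 6. Low scores thus stood in both groups, and the 3 highest were all in vehicle tumours. None of the 30 genes passed the test between the treatments in limma, and 3 reached an unadjusted p under 0.05, all lower in GSK343 tumours, as did 6.86% of all lines in that direction. Their median log2 fold change was -0.06, against -0.01 over all lines. Ube2c, a ubiquitin-conjugating enzyme of mitosis, averaged 68.2 ± 6.43 FPKM in GSK343 and 82.5 ± 3.25 FPKM in vehicle tumours without overlap (limma adjusted p = 0.191). Mki67, the usual marker of cycling cells, averaged 22.9 ± 2.30 and 22.6 ± 2.30 FPKM (limma adjusted p = 0.931). Birc5, Aurka and Plk1, of the mitotic apparatus, averaged 47.6 ± 6.502, 21.6 ± 6.88 and 19.9 ± 2.47 FPKM in GSK343 and 58.2 ± 3.79, 28.5 ± 2.48 and 22.8 ± 1.44 FPKM in vehicle tumours, with limma adjusted p between 0.202 and 0.297. Pcna, the replication clamp, averaged 99.4 ± 6.56 and 95.96 ± 18.8 FPKM.

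Rbbp4 had the highest correlation with the score among the subunits (Pearson r = 0.85, permutation p = 0.00334, adjusted over all lines p = 0.206; Spearman rho = 0.90, permutation p = 0.0008, adjusted p = 0.0999; 10 tumours). Its r was 0.87 without GSK343 replicates 3 and 4, the 2 tumours farthest from the median score, and 0.81 after each value was centred on its group mean. Ezh2 was next (r = 0.68, permutation p = 0.0331, adjusted p = 0.391; rho = 0.73, permutation p = 0.0204, adjusted p = 0.245). Its r was 0.56 without those 2 tumours and 0.60 after centring. With the leukocyte, fibroblast and hepatoma scores Ezh2 had r = -0.63, -0.54 and 0.33, and Rbbp4 had r = -0.51, -0.51 and 0.21, given without a test. Whether the relation is particular to proliferation was not tested. GSK343 replicates 1 and 5 had scores of 4.75 and 4.71 but Ezh2 at the level of the tumours with the lowest scores. Neither gene passed the adjusted threshold, which 0 of 14496 lines did in this test, while 9.64% of all lines had a positive r at an unadjusted p under 0.05.

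Mtf2 (r = 0.59, permutation p = 0.0723; rho = 0.58, p = 0.0886), Rbbp7 (r = 0.45, p = 0.193; rho = 0.52, p = 0.133) and Suz12 (r = 0.44, p = 0.200; rho = 0.55, p = 0.107) had positive values at adjusted p of 0.389 to 0.651. Eed differed between the measures, with r = 0.50 (permutation p = 0.127) and rho = 0.20 (permutation p = 0.582), and its values peaked in tumours with scores from 4.71 to 4.80. With the leukocyte, fibroblast and hepatoma scores the r of Eed was 0.55, 0.50 and -0.66, given without a test. Ezh1 had r = -0.17 (permutation p = 0.645) with rho = 0.20 (permutation p = 0.584), and without the 2 farthest tumours r = -0.51. Jarid2 (r = -0.17, permutation p = 0.625; rho = -0.12, p = 0.758) and Aebp2 (r = 0.05, permutation p = 0.888; rho = 0.19, p = 0.605) did not pass, and without the 2 farthest tumours their r was 0.20 and 0.49. Over all lines the median r was 0.11, and 58.6% of lines had a positive r.

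**Figure D4:**
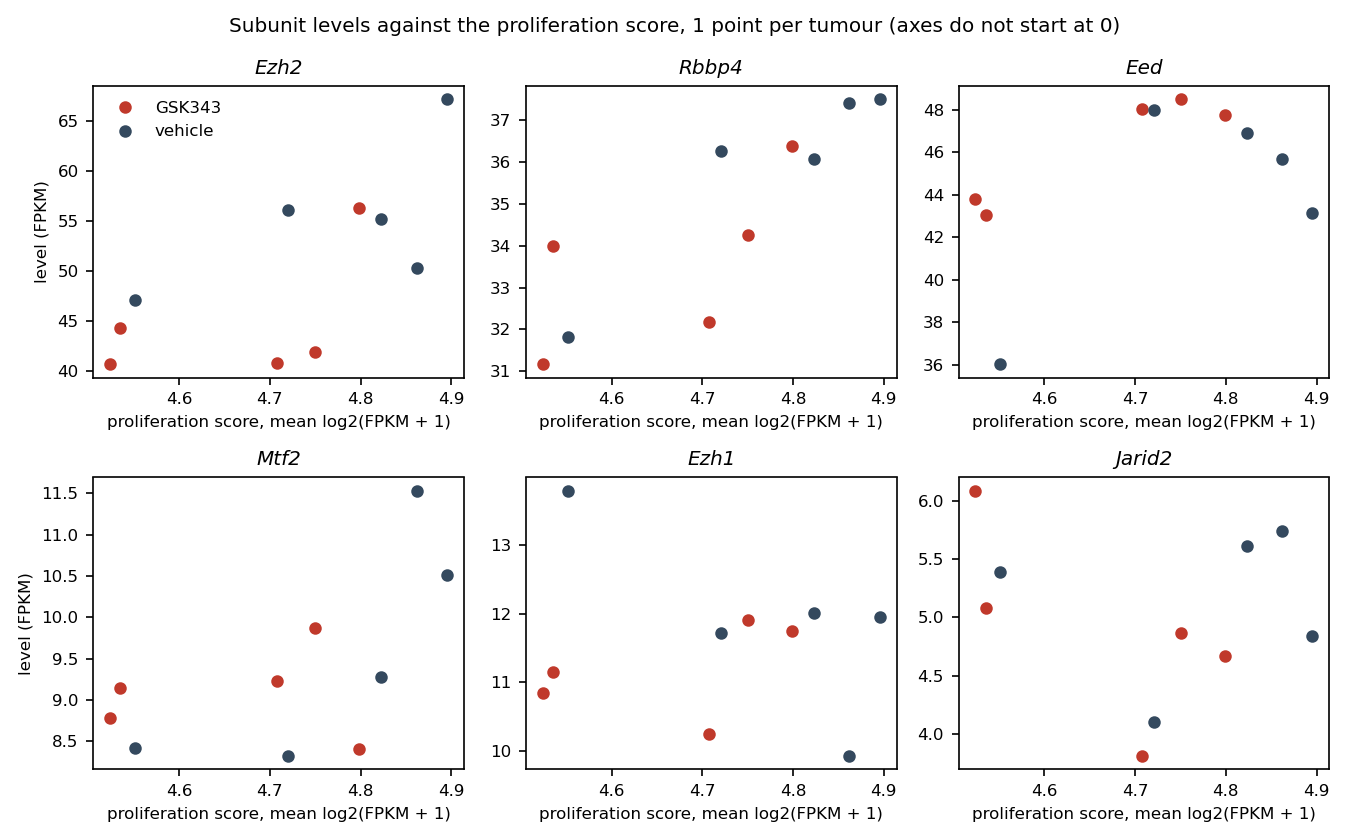
Level of 6 subunits in FPKM (vertical axes) against the proliferation score, the mean log2(FPKM + 1) of 30 genes (horizontal axes), with 1 point per tumour, GSK343 in red and vehicle in dark blue. Rbbp4 has r = 0.85 over the 10 tumours, and for Ezh2 the GSK343 tumours at 4.71 and 4.75 stay near 41 FPKM.

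A model with treatment and score together, fitted over all lines, gave a slope in log2 units of the gene per log2 unit of the score. The slope was 0.86 for Ezh2 (SE 0.422, 95% interval -0.08 to 1.81), 0.71 for Eed (SE 0.284, 0.07 to 1.35) and 0.55 for Rbbp4 (SE 0.228, 0.03 to 1.06). The slope of Eed was 0.31 without vehicle replicate 1, and that of Ezh2 was 0.55 without GSK343 replicate 2. It was 0.59 for Mtf2, 0.56 for Rbbp7 and 0.38 for Suz12, and below 0 for Jarid2 (-0.38), Ezh1 (-0.32) and Aebp2 (-0.01). None of the 9 passed (limma, smallest adjusted p = 0.437), where 0.0345% of all lines were called, all of them with a negative slope. At an unadjusted p under 0.05, 2 of the 9 were reached with a positive slope, Eed and Rbbp4, and 8.34% of all lines were. None of the 9 was reached with a negative slope, and 2.13% of all lines were. In the same model the treatment term of Ezh2 was -0.20 (SE 0.110, limma adjusted p = 0.374), and that of Eed was 0.15 (SE 0.0741, adjusted p = 0.338).

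Pearson r between the 10 genes ran from -0.56 to 0.81. Over the 45 pairs the median Pearson r was 0.15, with 26 above 0, and none passed after adjustment over the 45. An unadjusted permutation p under 0.05 was reached by 3 of the 45 pairs. Pairs of other genes were not counted, so whether these values are particular to the subunits was not tested. Ezh2 and Rbbp4 had r = 0.81 (permutation p = 0.00525, adjusted p = 0.113; rho = 0.84, permutation p = 0.00356), and 0.75 after centring on the groups. Suz12 and Mtf2 had r = 0.81 (permutation p = 0.00553, adjusted p = 0.113; rho = 0.76, permutation p = 0.0153), but 0.46 without the 2 tumours farthest in Suz12, so the relation rests in part on those. Eed and Phf19 had r = 0.76 (permutation p = 0.00752, adjusted p = 0.113; rho = 0.71, permutation p = 0.0269), and 0.83 without the 2 tumours farthest in Eed. Ezh2 had r = 0.05 with Suz12 (permutation p = 0.886; rho = 0.07, permutation p = 0.866) and r = 0.03 with Eed (permutation p = 0.948; rho = -0.10, permutation p = 0.784).

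**Figure D5:**
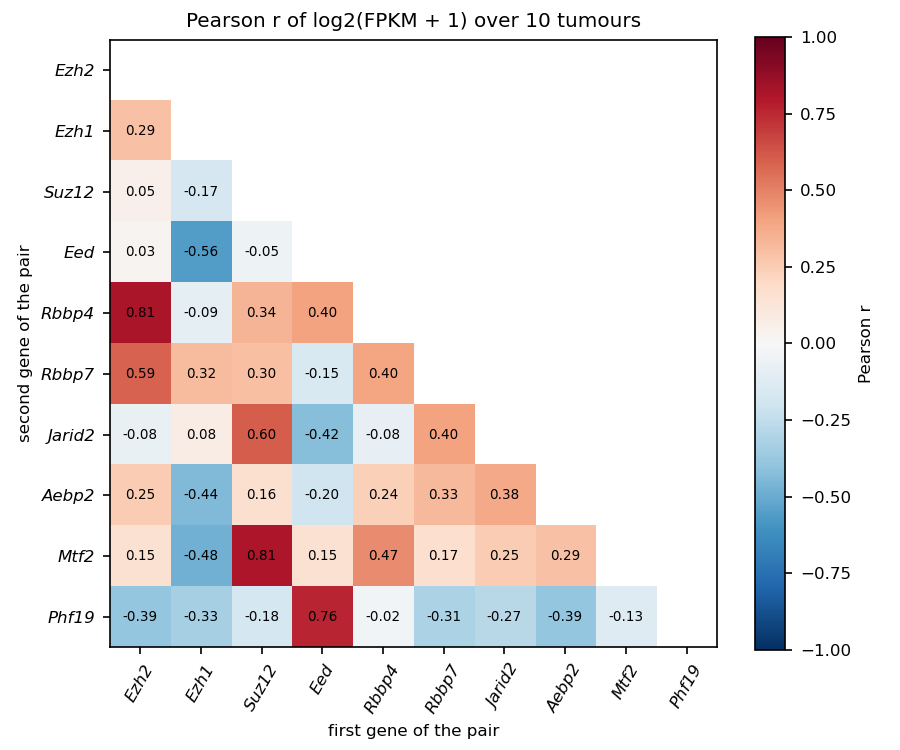
Pearson r of log2(FPKM + 1) over 10 tumours for the 45 pairs of subunits (rows and columns), red for positive and blue for negative values. Only Ezh2 with Rbbp4, Suz12 with Mtf2, and Eed with Phf19 exceed 0.75.

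The 5 named protein-coding genes whose profile was most like that of Ezh2, by Pearson r of log2(FPKM + 1) over the 10 tumours and among 11340 genes, were Nr2f6 (r = 0.95), Hdac1 (0.93), Ndufb8 (0.93), Akr1b3 (0.92) and Mcm7 (0.91). Mcm7, part of the replicative helicase, is one of the 30 genes of the score. Among the genes most like Ezh1 were Nckipsd (r = 0.96), Cyp27a1 (0.93), Sema6b (0.91) and Dhx34 (0.90). Phf19 was most like St5 (r = 0.95), Cars2 (0.93), Zfp958 (0.92), Mmp11 (0.92) and Tex9 (0.91). Being the highest of 11340 values, these r have no test.

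Further genes of the complex were few. Phf1, the remaining Polycomb-like gene, ranged from 9.55 to 10.5 FPKM in GSK343 and from 8.75 to 10.9 FPKM in vehicle tumours, near the level of Mtf2 (limma adjusted p = 0.834). Its exons overlap Cuta on the other strand, at 49.3 FPKM. Lcorl, which encodes the cofactor PALI2, averaged 4.05 ± 0.597 and 5.04 ± 1.26 FPKM (limma adjusted p = 0.431), and its exons overlap Ncapg on the other strand. Lcor, which encodes PALI1, lay below the filter at 0.724 to 1.28 FPKM in GSK343 and 0.650 to 1.22 FPKM in vehicle tumours. Epop, a cofactor of the Polycomb-like form, lay below it at 0.419 to 0.584 and 0.257 to 0.457 FPKM. Of 7 symbols listed, 3 had no line under that symbol, 2 were tested and 0 were called in limma, with none at an unadjusted p under 0.05.

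Of the 16 genes of the other complexes that use RBBP4 or RBBP7, all were tested and 0 were called in limma, with none at an unadjusted p under 0.05, which 17.6% of all lines reached. Their median log2 fold change was -0.06, with 12 of 16 below 0, against -0.01 and 7593 of 14496 over all lines. The 4 with the smallest p were the deacetylase gene Hdac2 (50.2 ± 9.41 FPKM in GSK343, 60.2 ± 6.06 FPKM in vehicle tumours), Mbd3 (48.3 ± 4.14 and 53.7 ± 2.04 FPKM), Mta1 (30.6 ± 3.61 and 34.2 ± 2.54 FPKM) and Gatad2a (18.9 ± 1.004 and 20.3 ± 1.76 FPKM). The 19 genes of the RB and E2F pathway, which controls Ezh2 in dividing cells, were all tested and 0 were called, with none at an unadjusted p under 0.05 (17.6% of all lines) and a median log2 fold change of 0.03 (-0.01 over all lines). Rb1 averaged 4.52 ± 0.830 and 3.52 ± 0.694 FPKM (limma adjusted p = 0.310), and Rbl2 10.5 ± 2.25 and 8.42 ± 1.16 FPKM. E2f1 averaged 7.78 ± 1.95 and 7.42 ± 0.740 FPKM, Rbl1 9.94 ± 1.11 and 8.72 ± 2.29 FPKM, E2f2 1.34 ± 0.227 and 1.047 ± 0.350 FPKM, and Lin37 10.4 ± 3.32 and 12.3 ± 1.52 FPKM.

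Promoters were read because proliferation genes, against which the subunits were compared, often carry sites of E2F factors or the CHR element of the DREAM complex. RefSeq (build GRCm38.p6) held 14 windows for the 10 genes, each from 250 bases before to 50 after a start site. The search took TTTCCCGC, TTTGGCGC, TTTCGCGC and TTTGCCGC for E2F and TTTGAA for CHR, on both strands. The E2F letters were in 3 of the 14 windows (Ezh2, Suz12 and Phf19) and in 2.26% of all 32851 mouse promoter windows. The Phf19 window was the only one of the 14 whose end was found in no GENCODE M21 transcript of its gene. The CHR letters were in 4 of the 14 (Suz12, Eed, the third of 3 start sites of Aebp2 and the second of 2 of Mtf2) and in 17.9% of all windows. Stretches of 120 bases that hold each match, or that end at the start site where there is none, are given for the 3 genes with the E2F letters, for Eed, and for Rbbp4 and Ezh1, which had no match. Matched letters are in capitals, written 5′ to 3′ on the strand of the gene.
Ezh2, chr6:47595011-47595130, minus strand: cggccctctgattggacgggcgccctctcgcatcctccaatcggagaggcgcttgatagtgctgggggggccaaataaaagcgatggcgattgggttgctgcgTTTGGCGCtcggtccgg
Suz12, chr11:79992877-79992996, plus strand: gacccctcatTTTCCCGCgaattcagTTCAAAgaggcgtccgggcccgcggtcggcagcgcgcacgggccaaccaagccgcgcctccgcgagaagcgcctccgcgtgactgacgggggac
Phf19, chr2:34914075-34914194, minus strand: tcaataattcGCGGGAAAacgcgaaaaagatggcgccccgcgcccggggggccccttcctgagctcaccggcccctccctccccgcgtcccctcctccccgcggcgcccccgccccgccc
Eed, chr7:89981064-89981183, minus strand: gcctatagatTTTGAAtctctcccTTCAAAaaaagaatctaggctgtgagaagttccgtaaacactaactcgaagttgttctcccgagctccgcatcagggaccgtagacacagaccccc
Rbbp4, chr4:129335371-129335490, minus strand: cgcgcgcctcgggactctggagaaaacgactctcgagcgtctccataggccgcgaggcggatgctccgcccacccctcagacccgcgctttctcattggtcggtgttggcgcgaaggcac
Ezh1, chr11:101226464-101226583, minus strand: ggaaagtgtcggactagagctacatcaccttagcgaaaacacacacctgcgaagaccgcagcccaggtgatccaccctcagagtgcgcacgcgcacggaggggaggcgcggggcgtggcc
In Ezh2 the match lies at bases 4 to 11 counted from the RefSeq start site. Relative to the start site, it lies at -219 to -212 in Suz12 and at -208 to -201 in Phf19. The Ezh2 stretch lies inside the gene as annotated in the deposited table, which runs to 47595341 on the minus strand. Of the 2 genes with the highest r with the proliferation score, Ezh2 held the E2F letters and Rbbp4 had no exact match. Only exact matches were counted, and the Rbbp4 stretch holds gttggcgc, which differs from TTTGGCGC in its first letter. The search therefore does not separate these 2 promoters by E2F sites. A match describes these letters and is not evidence of a bound site.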

How the data were processed

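Poly-A RNA of 10 Hepa1-6 tumours was sequenced on an Illumina HiSeq instrument. Per the labels, the submitters' processing notes name Trimmomatic 0.33, HISAT2 2.1.0, StringTie 1.3.3b and the genome mm10. The authors' deposited table has no unit in its header, and its values were read as FPKM from their range and from StringTie's output. Strand setting, annotation and handling of shared reads: not given in the sources used here. FPKM allows no counting interval, and the inferred depth assumes that 1 step is 1 read.

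From these values, log2(FPKM + 1) was fitted in R 4.3.3 by limma 3.58.1 (trended prior variance, two-sided) for the 14496 lines whose mean reached 1 FPKM, with Benjamini-Hochberg adjustment over all lines. Fold changes on this scale understate those of low genes. Ratios of FPKM were compared by exact permutation of the tumours, adjusted over 8 ratios. Correlations used 100000 permutations (Python 3.11.15), those with the score adjusted over all lines. Scores average log2(FPKM + 1) over a list's tested genes. The limma fits and the correlation permutations were checked on simulated data, with planted effects stronger than those of the subunits. The exact permutation of the ratios was not checked in this way. Genes were named by a rule: the 10 subunits, the tested cofactors, the first 2 genes of each marker list, the 4 with the smallest p in each further list, E2f1, Rb1, Rbl1, Mki67 and Pcna, and the 5 profiles most like Ezh2, Ezh1 and Phf19, of which 1 is not reported here. GENCODE release M21 supplied gene types and overlaps, and its coordinates equal the table's for the 10 genes. The subunits and lists were chosen with earlier results of these data known. Other filters, pseudocounts, scalings, covariates, variance settings, weighting of tumours, summing of lines, pairing by replicate number and leaving out tumours were tried. Plots were drawn with matplotlib 3.10.9.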

Additional observations from a re-analysis of the deposited data

Results flagged for a closer look

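Of 56 groups of 5 values (subunits, cofactors, ratios and scores in each treatment), 2 held a single value far from the rest. Chance alone gives about 5% of groups. In GSK343 replicate 2, Ezh2 stood at 56.3 FPKM, while its other 4 GSK343 values were 40.6 to 44.3 FPKM. Rbbp4 was 31.8 FPKM in vehicle replicate 1, against 36.1 to 37.5 FPKM in the other vehicle tumours.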

How the results depend on the processing

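No subunit was called under any of the 23 alternatives for the treatment or the 20 for the slope. The lines called numbered 12, and 6 with no filter on low values, 3 at a mean of at least 5 FPKM, 7 with quantile normalization, 2 with the leukocyte covariate, 3 with the proliferation covariate and 4 without GSK343 replicates 3 and 5, an alternative chosen after seeing the data. With single tumours left out they numbered 3 to 98, with 98 when vehicle replicate 2 was left out. Replicate numbers did not pair the tumours (correlations of deviations from -0.33 to 0.03), and with the replicate block 2 lines were called and the log2 fold change of Ezh2 was -0.33 (limma adjusted p = 0.478).

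The direction changed for the values that follow, none of them called, and the cause was not tested. With the leukocyte covariate the log2 fold changes were 0.036 for Suz12, -0.045 for Eed, 0.11 for Rbbp7, 0.052 for Jarid2, 0.14 for Aebp2 and 0.029 for Mtf2. The slope of Aebp2 was 0.13 on S-phase genes, 0.086 without the treatment term and 0.17 without GSK343 replicates 3 and 5. That of Ezh1 was 0.14 without vehicle replicates 1 and 3, also chosen after seeing the data. The log2 ratio differences were 0.0075 for Rbbp4 to Rbbp7 with the replicate block, and for Jarid2 to Aebp2 0.0021 with a pseudocount of 1, 0.0090 with the block and 0.034 without GSK343 replicates 3 and 5. Single tumours left out gave log2 fold changes of -0.13 to 0.011 for Jarid2 and -0.12 to 0.050 for Aebp2, and slopes of -0.48 to 0.13 for Ezh1 and -0.46 to 0.36 for Aebp2. They gave log2 ratio differences of -0.064 to 0.071 for Rbbp4 to Rbbp7, -0.13 to 0.072 for Jarid2 to Aebp2, and -0.12 to 0.061 for Mtf2 plus Phf19 to Jarid2 plus Aebp2. Of 565 values under alternatives, 516 were unchanged, in direction and side of the threshold or, for counts of called lines, in staying near the main count. Some of these could not change. Ratios with summed lines repeat the main result, as each subunit had a single line, and another filter leaves a subunit's fold change as it was. The 516 are therefore not a measure of stability. Phf19 lay below 1 FPKM in each tumour, and FPKM gives no counting interval for it.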
